A study of Mus musculus with 4 samples.

Results

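The 10 genes described here encode the glucose transporter GLUT1 (Slc2a1) and the enzymes Hk1, Aldoa, Tpi1, Gapdh, Pgk1, Eno1, Eno3, Pkm and Ldha, which carry glucose to lactate. They form a list named by function, drawn up with earlier results of these data known, and all 10 were found among the 32285 genes of the deposited count matrices. Glycolysis splits glucose into trioses, oxidises them and yields ATP, pyruvate and, through lactate dehydrogenase, lactate. T cells that receive a signal through the antigen receptor, and dividing thymocytes at the pre-TCR stage, are known to raise glucose uptake and glycolysis. HIF and MYC are known activators of many of these genes, through HIF response elements and E-boxes in their promoters. The 10 genes were followed across 4 classes of thymocyte, 2 sort gates and 2 genotypes.

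The data are single-cell RNA sequencing counts from thymi of C57BL/6J mice aged 3 weeks, with the thymi of 4 animals pooled and CD8-bearing cells depleted before the sort. The 4 libraries were PD-1 knockout CD25-, wild type (WT) CD25-, PD-1 knockout CD25+ and WT CD25+, where the CD25- gate (CD4+ HSA+ CD73- CD25-) is labelled CD4 single positive thymocytes and the CD25+ gate (CD4+ HSA+ CD73- CD25+) regulatory T cells with their CD25+ progenitors. PD-1, encoded by Pdcd1, is an inhibitory receptor on T cells, and the study compared knockout with WT cells. Every library is 1 pool, so no difference between genotypes or gates has a replicate check, and the sources used here do not say whether the CD25- and CD25+ cells of a genotype were sorted from 1 pool of thymi. The listed stains include CD74 and not CD73.

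Cells were placed in the classes by their own counts of unique molecular identifiers (UMIs, each marking 1 captured transcript), in a fixed order. Foxp3 cells held at least 1 UMI of Foxp3, the lineage factor of regulatory T cells. Signalled cells held at least 2 UMIs of Nr4a1, Egr2 and Tnfrsf9 together, which are genes induced by antigen receptor signals. Other Cd4/Trac cells, the reference class, held at least 1 UMI of Cd4 or Trac, and pre-TCR cells had no Cd4 UMI and at least 1 of Ptcra, the invariant chain of the pre-T cell receptor. The knockout-labelled CD25- library gave 286 signalled, 59 Foxp3, 0 pre-TCR and 1168 other Cd4/Trac cells, and the WT CD25- library gave 307, 50, 0 and 2009. The knockout-labelled CD25+ library gave 582 signalled, 388 Foxp3, 6485 pre-TCR and 431 other cells, and the WT CD25+ library gave 622, 680, 4699 and 607. Most cells of both CD25+ libraries thus carried pre-TCR transcripts, in a gate labelled as regulatory T cells and progenitors. A cell can meet more than 1 rule, and 61 signalled cells in the knockout-labelled CD25+ library and 54 in the WT CD25+ library also met the pre-TCR rule. So did 57 of the 388 knockout-labelled and 36 of the 680 WT Foxp3 cells of the CD25+ libraries.

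The classes were checked against marker lists that hold more than the genes of the rules. Leaving out Foxp3, which defines the class, the 6 other regulatory T cell markers (Il2ra, Ctla4, Ikzf2, Tnfrsf18, Tnfrsf4 and Lrrc32) summed to 782, 849, 2734 and 3054 CPM (counts per 1000000 UMIs) in Foxp3 cells of the knockout-labelled CD25-, WT CD25-, knockout-labelled CD25+ and WT CD25+ libraries, against 219, 207, 974 and 856 CPM in other Cd4/Trac cells. Signalled cells came between, at 744, 629, 1911 and 2142 CPM in the same order of libraries. The sum was thus close to that of Foxp3 cells in the knockout-labelled CD25- library. Pre-TCR cells stood at 1494 and 1748 CPM in the knockout-labelled and WT CD25+ libraries. Il2ra, which encodes CD25, was highest in pre-TCR cells, at 1265 and 1517 CPM in the knockout-labelled and WT CD25+ libraries. Dntt and Rag1, expressed in early thymocytes that rearrange their receptors, stood at 1101 and 312 CPM in pre-TCR cells of the knockout-labelled library and at 1518 and 358 CPM in those of the WT library.

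Total depth followed the number of cells, and depth per cell differed most between the CD25- libraries, with median UMIs of 6282 (knockout-labelled) and 4510 (WT), against 5961 and 5810 in the knockout-labelled and WT CD25+ libraries. After filtering, the knockout-labelled and WT CD25- libraries held 11154138 and 13610354 UMIs, and the knockout-labelled and WT CD25+ libraries 68988472 and 54144136. Median UMIs per cell lay between 4148 and 6874 over the classes, and pairs of libraries shared 4 to 94 barcodes, at most 1.34% of the smaller library. The filter on genes and mitochondrial UMIs removed 50.6% and 41.3% of barcodes from the knockout-labelled and WT CD25- libraries, against 6.40% and 4.58% from the knockout-labelled and WT CD25+ libraries. Gm42418, a locus that overlaps ribosomal RNA and is read here as a sign of RNA quality, took 17406 and 30230 CPM in other Cd4/Trac cells of the knockout-labelled and WT CD25- libraries, against 6509 and 6244 CPM in the knockout-labelled and WT CD25+ libraries. Its part in the differences between gates and genotypes was not tested. Pdcd1 stood at 27.3 CPM (95% Poisson interval 24.4 to 30.6) in the knockout-labelled CD25- library against 18.0 CPM (15.8 to 20.4) in the WT CD25- library, and at 18.7 CPM (17.7 to 19.8) against 16.1 CPM (15.0 to 17.2) in the CD25+ pair. The targeted gene was thus not lower in the libraries labelled knockout, and which part of the gene was deleted is not stated in the labels, so these libraries are called knockout-labelled.

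Signalled cells held more transcript of most of the 10 genes than other Cd4/Trac cells of the same library. The 8 genes Eno3, Pgk1, Aldoa, Gapdh, Tpi1, Ldha, Pkm and Eno1 were higher in signalled cells (adjusted p under 0.05), and each was higher in 4 of 4 libraries. No member was lower by edgeR's quasi-likelihood test, at an unadjusted p under 0.05 or by DESeq2, and Slc2a1 and Hk1 did not pass. Over all 11752 genes tested, 11.8% were higher and 13.4% lower in the same contrast, and the median log2 fold change was 0.37 for the 10 genes and -0.03 for all genes. The test was edgeR's quasi-likelihood test on UMIs summed per library and class, with library as a block and p adjusted by Benjamini-Hochberg over all genes. The 4 libraries differ in gate and genotype and are not replicates of 1 group, so these p-values measure the spread among these pools. Without the library block only Eno3 of the 10 passed, and with every cell thinned to 1500 UMIs before classes were assigned only Eno3 and Tpi1 passed. Within the CD25+ libraries, signalled cells also held fewer early thymocyte transcripts than other cells, and with all cells holding a Ptcra, Rag1 or Dntt UMI left out 7 of the 10 genes were higher.

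**Figure D1:**
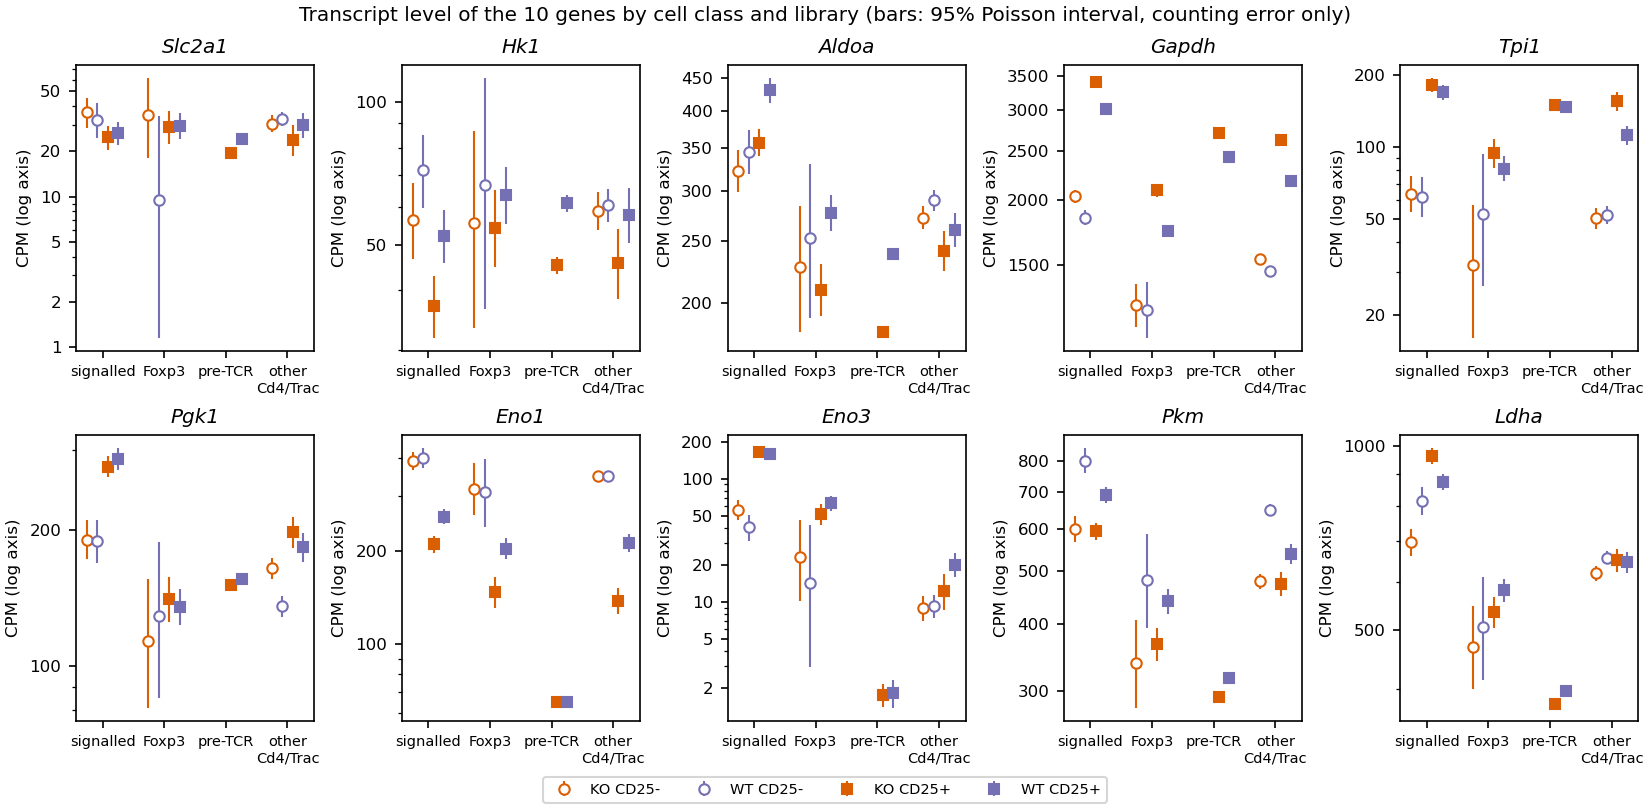
Transcript level in CPM (log axis) of each of the 10 genes in the 4 classes, 1 point per library, with circles for CD25- and squares for CD25+ libraries, orange for knockout-labelled and purple for WT; bars are 95% Poisson intervals and cover counting error only. Eno3 lies at 40.3 to 164 CPM in signalled cells and at 1.75 and 1.81 CPM in pre-TCR cells, whereas Slc2a1 and Hk1 stay within a narrow band apart from the sums of few cells.

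Eno3 encodes the muscle form of enolase, which turns 2-phosphoglycerate into phosphoenolpyruvate, and it had the widest difference among the 10 genes. Eno3 (ENSMUSG00000060600, mm10 chr11:70657202-70662513, plus strand) stood at 55.8, 40.3, 164 and 159 CPM in signalled cells of the knockout-labelled CD25-, WT CD25-, knockout-labelled CD25+ and WT CD25+ libraries, against 8.90, 9.22, 12.2 and 19.97 CPM in other Cd4/Trac cells of the same libraries. Every signalled value lay above every value of the other Cd4/Trac cells, and both CD25+ libraries were higher than both CD25- libraries in either class. These levels rest on 120, 72, 785 and 730 UMIs in signalled cells, against 71, 94, 38 and 79 UMIs in other cells. The log2 fold change was 2.89 ± 0.17 (SE), 7.41-fold, with an adjusted p of 1.67e-08 by edgeR's quasi-likelihood test. It passed under all 15 alternatives, between 2.04 and 3.13 on the log2 scale.

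The same ordering appeared in the share of cells with an Eno3 UMI once every cell was thinned to 1500 UMIs. For these shares the classes were kept as assigned from all UMIs, so the class assignment was not matched for depth. In signalled cells that share was 5.71%, 3.42%, 19.8% and 19.0% in the knockout-labelled CD25-, WT CD25-, knockout-labelled CD25+ and WT CD25+ libraries, against 1.33%, 1.29%, 1.93% and 3.39% in other Cd4/Trac cells. In pre-TCR cells it was 0.249% and 0.322% in the knockout-labelled and WT CD25+ libraries, a level at which free RNA in the droplets cannot be told apart from expression. The exact 95% intervals in signalled cells of the CD25+ libraries were 16.6% to 23.3% (knockout-labelled) and 16.0% to 22.4% (WT), so the share was far above that of pre-TCR cells of the same libraries. Before thinning the shares were 21.3%, 14.3%, 42.3% and 40.8% in signalled cells, against 4.97%, 3.78%, 6.26% and 9.39% in other Cd4/Trac cells and 1.14% and 1.26% in pre-TCR cells. Median depth before thinning was 6861, 5492, 6874 and 6546 UMIs in signalled cells, 6635.5, 5143, 5555 and 5211 in other cells, and 5977 and 6067 in pre-TCR cells, so signalled cells were deeper in every library. Intervals cover counting error only.

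The promoters of Eno3, Ldha and Pgk1 are shown because they belong to genes that were higher together in signalled cells and because HIF and MYC motifs are known regulators of glycolytic genes. Each is the stretch of 250 bases before a RefSeq start (GRCm38.p6), read 5′ to 3′ on the plus strand, with motifs on either strand in capitals: ACGTG is one core of HIF response elements, GCGTG the other, and CACGTG the E-box bound by MYC. The Eno3 stretch lies at chr11:70656926-70657175, the Ldha stretch, the upstream of its 2 windows, at chr7:46845554-46845803, and the Pgk1 stretch at chrX:106186850-106187099.
Eno3: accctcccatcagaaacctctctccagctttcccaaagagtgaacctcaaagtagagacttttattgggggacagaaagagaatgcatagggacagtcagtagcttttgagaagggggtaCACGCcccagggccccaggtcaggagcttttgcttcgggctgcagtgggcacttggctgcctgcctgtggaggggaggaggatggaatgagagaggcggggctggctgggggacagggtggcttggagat
Ldha: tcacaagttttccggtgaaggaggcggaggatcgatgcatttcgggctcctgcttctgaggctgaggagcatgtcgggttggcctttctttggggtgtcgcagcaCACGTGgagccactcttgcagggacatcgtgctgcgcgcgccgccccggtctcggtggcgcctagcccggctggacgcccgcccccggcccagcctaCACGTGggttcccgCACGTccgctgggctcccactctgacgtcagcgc
Pgk1: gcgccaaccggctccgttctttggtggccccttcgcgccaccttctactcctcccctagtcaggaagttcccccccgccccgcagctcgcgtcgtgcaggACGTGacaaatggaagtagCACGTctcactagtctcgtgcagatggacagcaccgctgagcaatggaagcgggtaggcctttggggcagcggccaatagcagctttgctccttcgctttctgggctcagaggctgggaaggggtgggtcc
The Eno3 stretch holds 1 match, a GCGTG on the minus strand, printed as CACGC. The Ldha stretch holds 5 matches to ACGTG counted over both strands, 4 of which are the 2 copies of the palindrome CACGTG read from either side. The downstream Ldha window, not printed, holds 1 GCGTG and 0 matches to ACGTG or CACGTG. The Pgk1 stretch holds 2 matches to ACGTG and none to GCGTG.

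All 10 genes had promoter entries, with 17 stretches in all because Hk1, Aldoa, Eno1, Pkm and Ldha have several starts. ACGTG was found on either strand in at least 1 stretch of 5 genes (Slc2a1, Aldoa, Pgk1, Pkm and Ldha), in 6 of the 17 stretches, where 16.6% of all 32851 RefSeq stretches of this length hold it. GCGTG was found in 6 genes (Slc2a1, Hk1, Gapdh, Eno1, Eno3 and Ldha), in 8 of the 17 stretches, some of which overlap, where 28.2% of all stretches hold it. CACGTG was found in Ldha alone of the 10, in 1 of the 17 stretches, against 6.02% of all stretches. The EGR motif GCGTGGGCG was in none of the members' stretches (0.536% of all), and the NR4A motif AAAGGTCA was in 1 stretch of Eno1 (1.34% of all). Each CACGTG contains an ACGTG on both strands, and GCGTGGGCG begins with GCGTG. These matches describe letters and not bound sites, and Tpi1, which was higher in signalled cells, had none of the 5 motifs in its stretch.

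Among the enzymes of the upper part of the pathway, Aldoa was higher in signalled cells and Hk1 was not. Aldoa (chr7:126795234-126800751, minus strand), the aldolase that splits fructose bisphosphate, stood at 322, 345, 357 and 431 CPM in signalled cells of the knockout-labelled CD25-, WT CD25-, knockout-labelled CD25+ and WT CD25+ libraries, against 272, 290.0, 242 and 261 CPM in other cells (log2 fold change 0.45 ± 0.09 SE, edgeR adjusted p = 0.00171). The 2 sets of values did not overlap. A second identifier, ENSMUSG00000114515 (chr7:126800790-126809108, minus strand), shares the symbol Aldoa. Its counts were kept apart and are not part of these values. Hk1 (chr10:62268855-62379908, minus strand), the hexokinase that traps glucose as its phosphate, stood at 56.3, 71.6, 37.1 and 52.1 CPM in signalled cells, against 58.9, 60.5, 45.6 and 57.6 CPM in other cells (log2 fold change -0.07 ± 0.10, edgeR adjusted p = 0.660). Slc2a1 (chr4:119108711-119137983, plus strand), which imports glucose, stood at 36.3, 32.5, 24.7 and 26.4 CPM, against 30.6, 33.0, 23.8 and 29.8 CPM (log2 fold change 0.01 ± 0.13, edgeR adjusted p = 0.967). The ranges of Slc2a1 and Hk1 overlapped between the classes. In GENCODE vM21, Slc2a1, Hk1, Aldoa, Gapdh and Tpi1 each overlap a gene on the opposite strand, and the sources used here do not say whether counting used strand.

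Tpi1 and Gapdh were higher in signalled cells within each library, yet differed more between gates than between these classes. Tpi1 (chr6:124810586-124814296, minus strand), which interconverts the 2 triose phosphates, stood at 63.7, 62.1, 181 and 169 CPM in signalled cells of the knockout-labelled CD25-, WT CD25-, knockout-labelled CD25+ and WT CD25+ libraries, against 50.4, 52.0, 155 and 112 CPM in other cells (log2 fold change 0.37 ± 0.09, edgeR adjusted p = 0.00632). Gapdh (chr6:125161715-125166467, minus strand), which oxidises glyceraldehyde 3-phosphate and makes NADH, stood at 2038, 1850.5, 3407 and 3015 CPM, against 1540.3, 1456, 2620.5 and 2181 CPM (log2 fold change 0.40 ± 0.05, edgeR adjusted p = 4.59e-05). Signalled cells of the CD25- libraries lay below other Cd4/Trac cells of the CD25+ libraries for both genes. The Tpi1 call was lost when the WT CD25+ library was left out and when signalled cells had to hold a Cd4 or Trac UMI.

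Pgk1, Pkm and Ldha, the ATP-making kinases and the lactate step, were higher in signalled cells by similar amounts. Pgk1 (chrX:106187100-106203699, plus strand) stood at 190.2, 189, 275 and 286 CPM in signalled cells of the knockout-labelled CD25-, WT CD25-, knockout-labelled CD25+ and WT CD25+ libraries, against 164, 136, 197 and 183 CPM in other cells (log2 fold change 0.46 ± 0.08, edgeR adjusted p = 0.000899). Pkm (chr9:59656368-59679375, plus strand), the pyruvate kinase, stood at 599, 801, 593 and 693 CPM, against 479, 649, 473 and 538 CPM (log2 fold change 0.33 ± 0.06, edgeR adjusted p = 0.00159). Ldha (chr7:46841475-46855627, plus strand) stood at 696, 814, 964 and 875 CPM, against 619, 658, 651 and 646 CPM (log2 fold change 0.37 ± 0.08, edgeR adjusted p = 0.00232). Ldha values of the 2 classes did not overlap, whereas those of Pgk1 and Pkm overlapped between libraries and separated only within them. The Ldha call was lost without the knockout-labelled CD25+ library.

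Eno1 (chr4:150236721-150248879, plus strand), the enolase of most tissues, changed least among the 8. Its levels were 391, 398, 211 and 258 CPM in signalled cells of the knockout-labelled CD25-, WT CD25-, knockout-labelled CD25+ and WT CD25+ libraries, against 349, 348, 138 and 213 CPM in other cells (log2 fold change 0.30 ± 0.10, edgeR adjusted p = 0.0332). The CD25- libraries were above the CD25+ libraries in both classes, the opposite of Eno3. The Eno1 call held under 6 of 15 alternatives, with log2 fold changes between -0.06, in thinned cells, and 0.41. Eno1b, a near-identical copy on another chromosome, was counted separately at 34.9, 36.4, 16.5 and 21.8 CPM in signalled cells, against 27.9, 30.0, 9.96 and 17.9 CPM in other cells, and the sources used here do not say how reads matching both copies were counted. Processed pseudogenes make the same doubt possible for Gapdh, Pgk1 and Ldha.

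**Figure D2:**
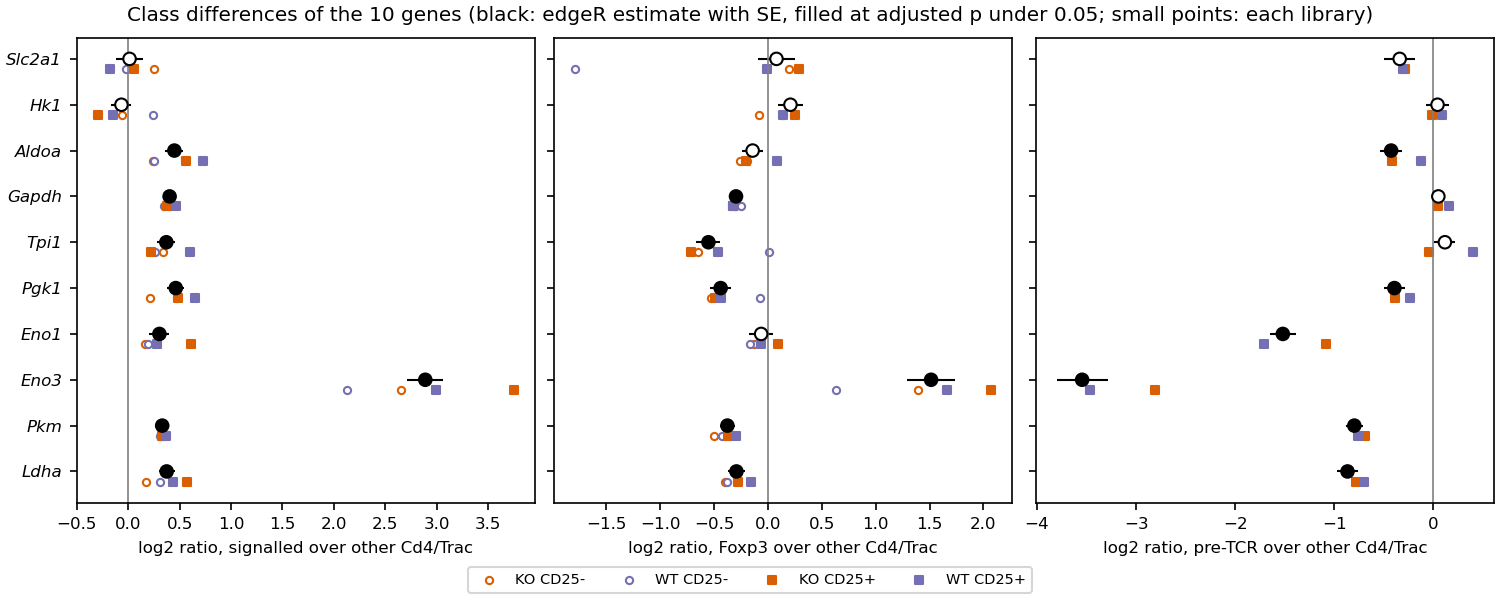
Log2 fold change of each gene in signalled, Foxp3 and pre-TCR cells, each against other Cd4/Trac cells; black points are edgeR estimates with bars of 1 standard error, filled where the adjusted p is under 0.05, and small points are CPM ratios within single libraries without edgeR's scaling. Eno3 is at 2.89 in signalled cells, 1.51 in Foxp3 cells and -3.54 in pre-TCR cells, the widest spread of the 10.

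In Foxp3 cells 5 of the 10 genes were lower than in other Cd4/Trac cells, 1 was higher and 4 did not pass. Gapdh, Tpi1, Pgk1, Pkm and Ldha were lower, where 10.6% of all genes tested were, and Eno3 was higher, where 7.05% of all genes were. The median log2 fold change was -0.22 for the 10 genes and -0.07 for all genes. Foxp3 cells also cycled less in 3 of the 4 libraries: cells with a UMI of Mki67, Top2a, Ccnb1, Cdk1 or Birc5 made up 16.9%, 2%, 14.2% and 7.21% of Foxp3 cells in the knockout-labelled CD25-, WT CD25-, knockout-labelled CD25+ and WT CD25+ libraries, against 16.8%, 10.9%, 32.5% and 23.6% of other cells. With such cells left out of both classes, none of the 5 lower calls passed edgeR's test. The log2 fold change was then -0.18 for Tpi1, -0.14 for Ldha, -0.21 for Gapdh, -0.30 for Pkm and -0.38 for Pgk1, so that Pkm and Pgk1 stayed near their values with all cells while Tpi1 and Ldha came nearer to 0.

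Eno3 stood at 23.4, 14.3, 51.4 and 63.2 CPM in Foxp3 cells of the knockout-labelled CD25-, WT CD25-, knockout-labelled CD25+ and WT CD25+ libraries, against 8.90, 9.22, 12.2 and 19.97 CPM in other cells. The CD25+ libraries carried the difference, since the CD25- values rest on 8 and 3 UMIs from 59 and 50 cells, against 110 and 211 UMIs in the CD25+ libraries. The log2 fold change was 1.51 ± 0.22 (SE), 2.86-fold, with an adjusted p of 0.000317 by edgeR's quasi-likelihood test. In thinned cells it was 0.25, which did not pass (edgeR adjusted p = 0.726).

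The lower calls in Foxp3 cells were small. Gapdh stood at 1249, 1226, 2095 and 1747 CPM in Foxp3 cells of the knockout-labelled CD25-, WT CD25-, knockout-labelled CD25+ and WT CD25+ libraries, against 1540.3, 1456, 2620.5 and 2181 CPM in other cells (log2 fold change -0.30 ± 0.05, edgeR adjusted p = 0.00133). Pkm stood at 339, 482, 367 and 439.9 CPM, against 479, 649, 473 and 538 CPM (log2 fold change -0.38 ± 0.07, edgeR adjusted p = 0.00179). Both genes were lower in every library, although the ranges overlapped across gates. Tpi1 (log2 fold change -0.55, lower in 3 of 4 libraries), Pgk1 (-0.44) and Ldha (-0.29) made up the rest. The Tpi1 call was also lost with cells holding a Ptcra, Rag1 or Dntt UMI left out. Ldha held under 6 of 15 alternatives and was lost whenever a library was left out. Slc2a1 (0.08), Hk1 (0.21), Aldoa (-0.14) and Eno1 (-0.06) did not pass, and the WT CD25- value of Slc2a1, 9.54 CPM, rests on 2 UMIs.

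Foxp3 cells were not uniform in these genes. In the CD25+ libraries, 106 of the 388 knockout-labelled and 172 of the 680 WT Foxp3 cells also met the signalled rule. Eno3 stood at 119 CPM in Foxp3 cells that met it, against 23.2 CPM in those that did not, in the knockout-labelled library, and at 129 against 34.5 CPM in the WT library. Ldha stood at 647 against 489 CPM in the knockout-labelled library and at 682 against 537 CPM in the WT library. Aldoa stood at 269 against 185 CPM and at 349 against 245 CPM, and Pkm at 448 against 333 CPM and at 507 against 411 CPM. Eno3, Ldha, Aldoa and Pkm were thus higher in the signalled Foxp3 cells of both genotypes. Slc2a1 was not (28.5 against 29.2 CPM in the knockout-labelled library, 25.5 against 31.5 CPM in the WT library), and Gapdh and Eno1 differed in direction between the libraries. These are 1 sum per library with no test.

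Pre-TCR cells, found only in the CD25+ libraries, held far less of both enolases and less Pkm and Ldha than other Cd4/Trac cells. Of the 10 genes 6 were lower, against 19.0% of all genes tested, each in 2 of 2 libraries. No member was higher by edgeR's quasi-likelihood test, at an unadjusted p under 0.05 or by DESeq2, where 15.9% of all genes were higher. The median log2 fold change was -0.41 for the 10 genes and 0.00 for all genes. Many of the other Cd4/Trac cells in these libraries held early thymocyte transcripts themselves. Only 200 of 431 knockout-labelled and 409 of 607 WT cells of that class held no Ptcra, Rag1 or Dntt UMI. The part of such cells in the pre-TCR contrast was not tested.

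Eno3 stood at 1.75 and 1.81 CPM in pre-TCR cells of the knockout-labelled and WT CD25+ libraries, against 12.2 and 19.97 CPM in other Cd4/Trac cells (log2 fold change -3.54 ± 0.26, 11.7-fold lower, edgeR adjusted p = 2.62e-08). Eno1 stood at 65.2 and 65.1 CPM, against 138 and 213 CPM (log2 fold change -1.52 ± 0.13, 2.87-fold lower, edgeR adjusted p = 2.08e-07). Within the knockout-labelled and WT CD25+ libraries the log2 ratios of CPM were -2.81 and -3.47 for Eno3 and -1.08 and -1.71 for Eno1, whereas the fit is scaled by edgeR and takes its library effects from all 14 sums. Both enolases were at their lowest in pre-TCR cells among the 4 classes. Pkm stood at 293 and 318 CPM, against 473 and 538 CPM (log2 fold change -0.80 ± 0.08, edgeR adjusted p = 1.93e-06), and Ldha at 379 and 397 CPM, against 651 and 646 CPM (log2 fold change -0.87 ± 0.10, edgeR adjusted p = 5.96e-06). The calls for Eno1, Eno3, Pkm and Ldha held under 14 of 14 alternatives. Where 1 of the 2 CD25+ libraries was left out, pre-TCR cells had 1 sum, which was assumed to vary like the other classes.

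Gapdh and Tpi1 did not follow the later steps of the pathway in pre-TCR cells. Gapdh stood at 2707 and 2434 CPM in pre-TCR cells of the knockout-labelled and WT CD25+ libraries, against 2620.5 and 2181 CPM in other cells (log2 fold change 0.05 ± 0.06, edgeR adjusted p = 0.595). Tpi1 stood at 149.7 and 147 CPM, against 155 and 112 CPM (log2 fold change 0.12 ± 0.10, edgeR adjusted p = 0.429). The Tpi1 values went in opposite directions in the 2 libraries, with log2 ratios of CPM of -0.05 in the knockout-labelled and 0.40 in the WT library, while Ldha and Pkm were lower in both. Aldoa (log2 fold change -0.43) and Pgk1 (-0.39) were lower, each under 11 of 14 alternatives, and Slc2a1 (-0.34) and Hk1 (0.04) did not pass. The log2 ratios of CPM for Aldoa were -0.42 in the knockout-labelled and only -0.13 in the WT library. Those for Pgk1 were -0.38 and -0.24. Cycling cells made up 35.5% and 25.4% of pre-TCR cells in the knockout-labelled and WT CD25+ libraries, against 32.5% and 23.6% of other cells.

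Summed over the 10 genes, signalled cells were highest in every library. The sum was 4449.9, 4604, 6214 and 5964 CPM in signalled cells of the knockout-labelled CD25-, WT CD25-, knockout-labelled CD25+ and WT CD25+ libraries. It was 2863, 3049, 3724 and 3622 CPM in Foxp3 cells, 3992 and 3842 CPM in pre-TCR cells of the knockout-labelled and WT CD25+ libraries, and 3573, 3691, 4559 and 4242 CPM in other cells. In both CD25+ libraries the order from high to low was signalled, other Cd4/Trac, pre-TCR and Foxp3. Gapdh alone made up 2707 and 2434 CPM of the pre-TCR sums in the knockout-labelled and WT CD25+ libraries. It made up 2095 and 1747 CPM of the Foxp3 sums. Without Gapdh the sum was higher in Foxp3 than in pre-TCR cells of both libraries. Likeness to the sum of the 10 genes was read over the 14 library-by-class sums. The genes closest to it were Pgam1, Eif3c, Atp5g3, Lsm12 and Timm23 (Pearson r of log2 levels 0.988, 0.981, 0.980, 0.976 and 0.973). For Eno3 alone they were Lad1, Bcl2a1d, Mapkapk2, Ttc28 and Bcl2a1b (0.960, 0.952, 0.951, 0.948 and 0.948), a list drawn up after the values were seen. The 14 sums share libraries and depth, and these values only describe likeness.

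The signalled class is a cut through a graded count, so the genes were also followed by the number of signal UMIs. Among Foxp3-negative cells with a Cd4 or Trac UMI, thinned to 1500 UMIs, Eno3 stood at 33.7, 177, 154 and 286 CPM in cells with 0, 1, 2 and 3 or more UMIs of Nr4a1, Egr2 and Tnfrsf9 in the knockout-labelled CD25+ library. It stood at 52.9, 113, 211 and 251 CPM in the same bins of the WT CD25+ library. In the CD25- libraries it stood at 9.14, 29.5, 47.6 and 126 CPM (knockout-labelled) and at 9.66, 25.4, 15.2 and 43.3 CPM (WT), the upper bins there resting on 1 to 11 UMIs. Eno3 was thus already higher with 1 signal UMI than with none in all 4 libraries.

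Of the 10 genes, Gapdh, Tpi1, Pgk1, Eno3, Pkm and Ldha were higher with 3 or more signal UMIs than with none in 4 of 4 libraries, Aldoa and Eno1 in 3 of 4, and Slc2a1 and Hk1 in 1 of 4. These are directions only, with no test. The highest Tpi1 bin rests on 4 UMIs in the knockout-labelled and 8 in the WT CD25- library. In the knockout-labelled CD25- library it stood at 46.0 against 41.7 CPM. Aldoa stood at 218 CPM in the highest bin against 257 CPM in the lowest in the knockout-labelled CD25- library, and Eno1 at 303 against 325 CPM in the WT CD25- library. Ldha stood at 587, 584, 667 and 701 CPM over the bins of the knockout-labelled CD25- library and at 600.2, 677, 803 and 944 CPM in the WT CD25- library. It stood at 499.6, 781, 810.3 and 803 CPM in the knockout-labelled CD25+ library and at 645, 656, 898 and 1007 CPM in the WT CD25+ library. Pgk1 stood at 253 CPM with 3 or more signal UMIs against 164 CPM with none in the knockout-labelled CD25+ library, and at 255 against 180.4 CPM in the WT CD25+ library. In the CD25- libraries it stood at 161 against 141 CPM (knockout-labelled) and at 156 against 115 CPM (WT). Slc2a1 showed no such order, with 30.8, 35.4, 35.7 and 23.0 CPM in the knockout-labelled CD25- library, 36.8, 40.7, 30.3 and 69.3 CPM in the WT CD25- library and 41.5, 10.8, 7.02 and 30.0 CPM in the WT CD25+ library, and it had no UMI in the bin with 1 signal UMI of the knockout-labelled CD25+ library. Its bins with a signal UMI rest on 0 to 8 Slc2a1 UMIs each, too few to tell an order from counting error.

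**Figure D3:**
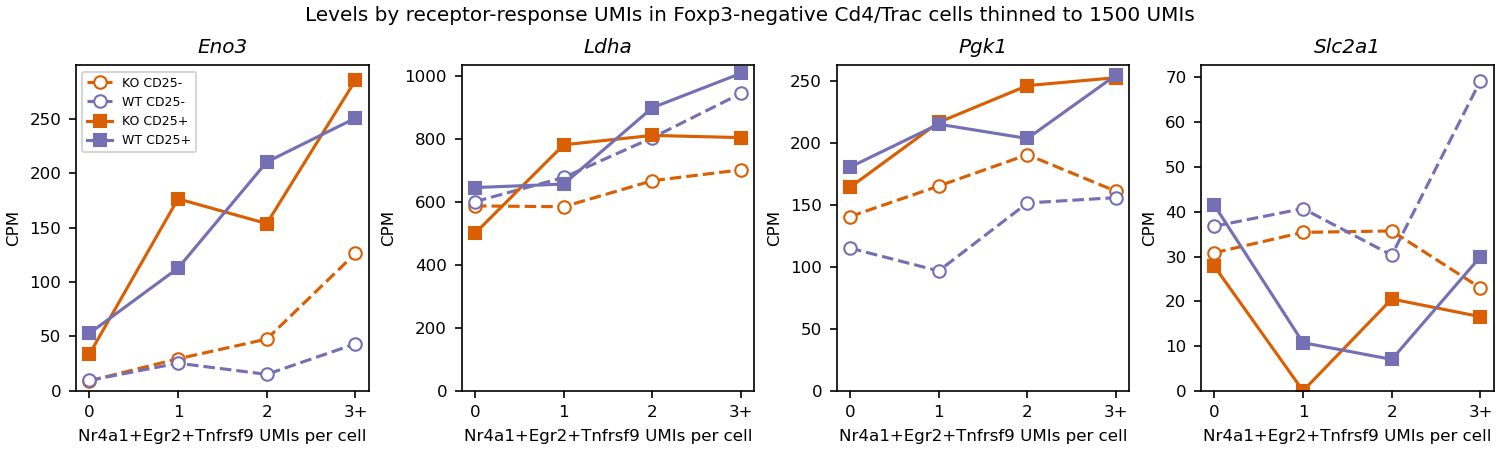
Level in CPM of Eno3, Ldha, Pgk1 and Slc2a1 in Foxp3-negative Cd4/Trac cells thinned to 1500 UMIs, by the number of UMIs of Nr4a1, Egr2 and Tnfrsf9 (0, 1, 2, 3 or more), 1 line per library. Eno3 is at 33.7 to 286 CPM in the knockout-labelled CD25+ library and 9.66 to 43.3 CPM in the WT CD25- library. Slc2a1 shows no order, and its bins with a signal UMI rest on 0 to 8 UMIs each.

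Tpi1 and Gapdh followed the cell cycle more than the other members did. In other Cd4/Trac cells, cells with a UMI of a cycle gene (Mki67, Top2a, Ccnb1, Cdk1 or Birc5) were set against those with none in the same libraries, a comparison added after the data were seen. Tpi1, Gapdh, Pgk1, Ldha and Pkm were higher in cycling cells, 5 of 10 against 19.4% of the 9655 genes tested, and Aldoa was lower, 1 of 10 against 14.7%. Cycling cells were deeper, with median UMIs of 9366, 7018, 10762 and 10726 in the knockout-labelled CD25-, WT CD25-, knockout-labelled CD25+ and WT CD25+ libraries, against 6338.5, 4970 and, in the CD25+ libraries, 4511 and 4696 in non-cycling cells, and the part of depth in these differences was not tested.

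Tpi1 stood at 82.9, 102, 228 and 189 CPM in cycling cells of the knockout-labelled CD25-, WT CD25-, knockout-labelled CD25+ and WT CD25+ libraries, against 39.7, 42.0, 64.8 and 57.0 CPM in non-cycling cells (log2 fold change 1.54 ± 0.13, edgeR adjusted p = 2.43e-06). Gapdh stood at 2091, 1965, 3224 and 2769 CPM in cycling cells, against 1360.3, 1355, 1872 and 1765 CPM in non-cycling cells (log2 fold change 0.73 ± 0.06, edgeR adjusted p = 1.80e-06). The cycling and non-cycling values of both genes did not overlap. Pgk1 (log2 fold change 0.60), Ldha (0.57) and Pkm (0.52) were higher by less. Aldoa stood at 203, 217, 225 and 204 CPM in cycling cells, against 295, 304, 262 and 301 CPM in non-cycling cells (log2 fold change -0.37 ± 0.09, edgeR adjusted p = 0.00640), with no overlap. Eno1 (-0.01), Eno3 (0.10), Slc2a1 (-0.14) and Hk1 (-0.29) did not pass.

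Aldoa therefore moved in opposite directions in the signalled and the cycling contrast, while Tpi1 was higher in both. The share of cycling cells was lower in signalled than in other cells, by more in the CD25+ than in the CD25- libraries, with 15.7%, 10.7%, 24.6% and 16.1% cycling cells in the knockout-labelled CD25-, WT CD25-, knockout-labelled CD25+ and WT CD25+ libraries against 16.8%, 10.9%, 32.5% and 23.6%. Without cycling cells, Tpi1 was higher in signalled cells by 0.82 on the log2 scale (edgeR adjusted p = 0.000648), against 0.37 with them. Within the signalled class, Eno3 stood at 28.5, 20.8, 61.9 and 56.2 CPM in cycling cells, against 64.7, 44.0, 232 and 195 CPM in non-cycling cells, lower in cycling cells of all 4 libraries, with no test run.

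**Figure D4:**
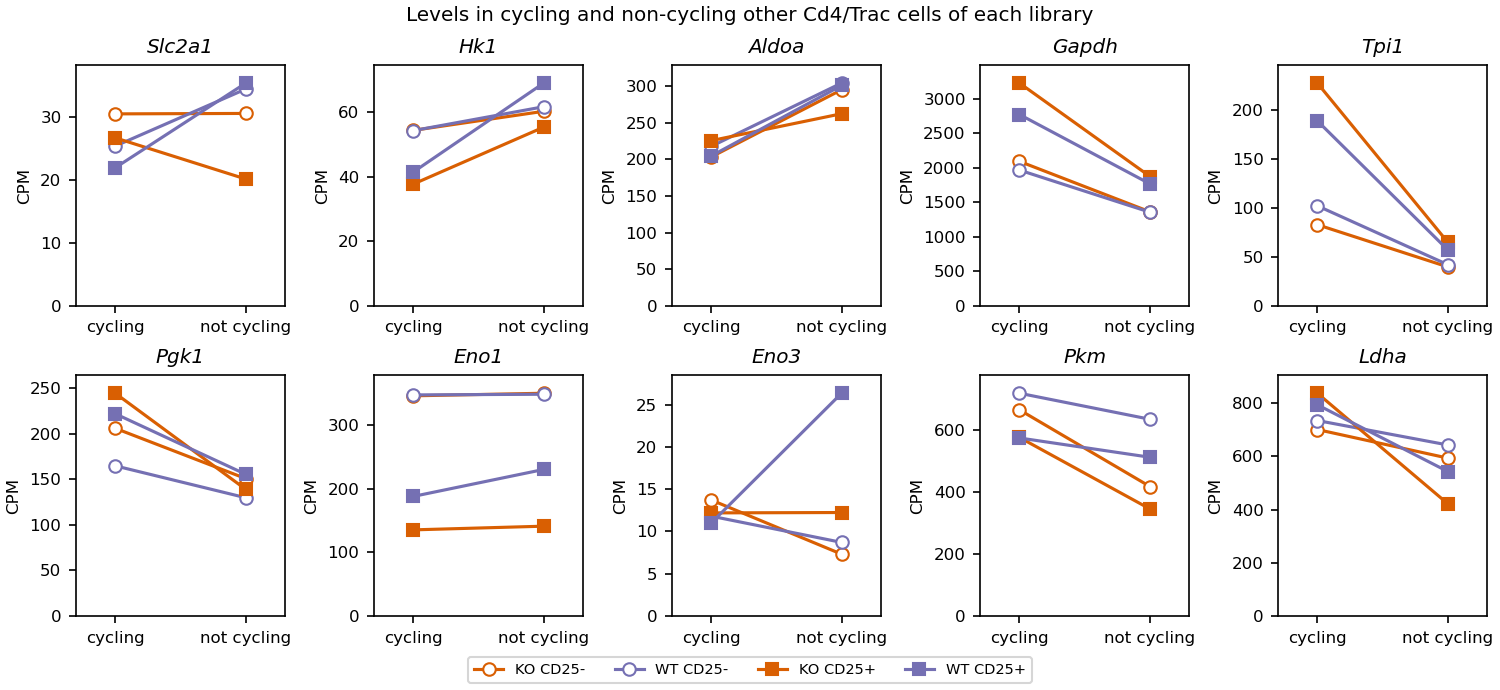
Level in CPM of each gene in cycling and non-cycling other Cd4/Trac cells, 1 line per library, with axes starting at 0. Tpi1 is at 82.9 to 228 CPM in cycling and 39.7 to 64.8 CPM in non-cycling cells, and Aldoa is lower in cycling cells of all 4 libraries.

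Between the gates, Tpi1 and Gapdh were higher and Eno1 lower in CD25+ than in CD25- cells of the same class. With 1 library on each side there is no test. A gene at 20 CPM or more in either sum is counted as changed at 1.5-fold, and intervals give counting error only. In signalled cells of the knockout-labelled libraries 3 of the 10 genes were higher and 2 lower, where 14.8% of all genes were higher and 16.3% lower. In WT signalled cells 4 were higher and 1 lower, against 13.6% and 12.5% of all genes. In other Cd4/Trac cells, 2 were higher and 1 lower in the knockout-labelled libraries (16.6% and 12.8% of all genes), and 1 was higher and 1 lower in the WT libraries (10.5% and 7.71%).

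Tpi1 had a log2 ratio of CD25+ over CD25- of 1.51 (95% interval 1.24 to 1.78) in knockout-labelled and 1.44 (1.15 to 1.74) in WT signalled cells, and of 1.62 (1.43 to 1.82) in knockout-labelled and 1.10 (0.92 to 1.29) in WT other cells. Gapdh had log2 ratios of 0.74 and 0.70 in knockout-labelled and WT signalled cells and 0.77 and 0.58 in knockout-labelled and WT other cells, the last just under 1.5-fold. Eno3 had log2 ratios of 1.56 (1.28 to 1.85) in knockout-labelled and 1.98 (1.63 to 2.35) in WT signalled cells. In other cells Eno3 was under 20 CPM in both sums and was not counted. Its log2 ratio there was 0.46 (-0.15 to 1.05) in knockout-labelled and 1.11 (0.66 to 1.56) in WT cells. The counting intervals of Tpi1 and Gapdh in both classes, and of Eno3 in signalled cells, thus lay well above no difference.

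Eno1 had log2 ratios of -0.89 and -0.63 in knockout-labelled and WT signalled cells and -1.34 and -0.71 in knockout-labelled and WT other cells, lower in the CD25+ gate by 1.5-fold in all 4 comparisons. In signalled cells the 2 enolase genes thus moved in opposite directions between the gates. Pkm (-0.27 to -0.02 over the 4 comparisons) and Ldha (-0.02 to 0.47) stayed under 1.5-fold, as did Aldoa (-0.17 to 0.32) and Slc2a1 (-0.55 to -0.14). Hk1 was past it in knockout-labelled signalled cells (-0.60) and Pgk1 in WT signalled cells (0.60). The sum of the 10 was 1.40-fold and 1.296-fold higher in CD25+ signalled cells of the knockout-labelled and WT libraries, and 1.28-fold and 1.15-fold higher in other cells. In other cells Gapdh carried that sum: the median log2 ratio of the 10 genes was 0.03 and -0.05 in the knockout-labelled and WT libraries, and the counting intervals of 3 and 4 genes lay above no change and those of 3 and 3 below it. In signalled cells the median was 0.31 and 0.21, with 6 intervals above and 3 below in either genotype. Gapdh made up most of the rise of the sum there as well. It went from 2038.5 to 3406.5 CPM (knockout-labelled) and from 1850.5 to 3015.5 CPM (WT). The sum went from 4449.9 to 6213.7 CPM and from 4604.1 to 5964.5 CPM.

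Cycling moved with the gate. The share of cycling cells was 24.6% and 16.1% in signalled cells of the knockout-labelled and WT CD25+ libraries, against 15.7% and 10.7% in the knockout-labelled and WT CD25- libraries, and 32.5% and 23.6% in other cells, against 16.8% and 10.9%. The 16 proliferation genes summed to 3200 and 2762 CPM in other cells of the CD25+ libraries, against 1369 and 993 CPM in the CD25- libraries. With cycling cells left out, the Tpi1 log2 ratio was 1.45 and 1.24 in knockout-labelled and WT signalled cells and 0.71 and 0.44 in knockout-labelled and WT other cells. That of Gapdh was 0.73 and 0.64 in signalled cells and 0.46 and 0.38 in other cells. The Tpi1 and Gapdh ratios in signalled cells thus stayed past 1.5-fold, whereas in other cells only that of Tpi1 in the knockout-labelled libraries did. Eno1 was then at -0.50 in WT signalled cells, under 1.5-fold, and at -0.68, -1.31 and -0.60 in knockout-labelled signalled, knockout-labelled other and WT other cells.

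Early thymocyte transcripts also moved with the gate. The 7 pre-TCR stage markers (Ptcra, Rag1, Rag2, Dntt, Hes1, Notch1 and Cd24a) summed to 822 and 835 CPM in signalled cells of the knockout-labelled and WT CD25+ libraries, against 137 and 130.4 CPM in the knockout-labelled and WT CD25- libraries. In other Cd4/Trac cells they summed to 1582 and 1188 CPM, against 75.8 and 98.3 CPM. Ptcra itself stood at 315 and 204 CPM in other cells of the knockout-labelled and WT CD25+ libraries, against 0.501 and 1.37 CPM in the CD25- libraries. With cells holding a Ptcra, Rag1 or Dntt UMI left out, the Tpi1 log2 ratio was 1.40 and 1.23 in knockout-labelled and WT signalled cells and 0.95 and 0.51 in other cells. That of Eno3 was 2.11 and 2.35 in signalled cells. That of Eno1 was -0.65 and -0.37 in knockout-labelled and WT signalled cells and -0.70 and -0.30 in knockout-labelled and WT other cells, under 1.5-fold in both WT comparisons. Gapdh fell under 1.5-fold in knockout-labelled other cells, at 0.51. The 4 gamma delta T cell markers (Trdc, Trgv2, Tcrg-C1 and Sox13) moved with the gate as well, summing to 377 and 336 CPM in other cells of the knockout-labelled and WT CD25+ libraries, against 22.3 and 16.9 CPM in the CD25- libraries, and their part was not tested. Hemoglobin markers were at 0 in all 4 classes, and myeloid markers summed to at most 53.4 CPM.

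Between knockout-labelled and WT libraries, nearly all ratios of these genes within a class and gate stayed under 1.5-fold. Of the 10 genes, none was past 1.5-fold in either direction in CD25- signalled cells (4.0% of all genes higher and 2.92% lower), CD25- other cells (1.89% and 1.1%), CD25+ signalled cells (2.41% and 2.51%), CD25+ Foxp3 cells (5.94% and 3.58%) or pre-TCR cells (2.47% and 1.69%). In CD25+ other Cd4/Trac cells 1 was lower (4.3% of all genes) and none higher (4.38%). That gene was Eno1, whose level was 138 CPM (knockout-labelled) against 213 CPM (WT) (log2 ratio -0.62, 95% counting interval -0.80 to -0.46). Eno3 was under 20 CPM in both sums there, so it could not be counted. Its level was 12.2 CPM (knockout-labelled) against 19.97 CPM (WT) (log2 ratio -0.71, 95% counting interval -1.31 to -0.13). For the same reason Eno3 was not counted in CD25- other and pre-TCR cells. Cycling cells and Ptcra also differed there, at 32.5% and 315 CPM in the knockout-labelled against 23.6% and 204 CPM in the WT library, and the Eno1 difference was under 1.5-fold without cells holding Ptcra, Rag1 or Dntt and also with doublets kept.

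Small differences ran the same way in several classes. Pkm was lower in the knockout-labelled library in all 6 comparisons, with log2 ratios of -0.42 (-0.53 to -0.31) in CD25- signalled, -0.44 (-0.50 to -0.38) in CD25- other, -0.22 in CD25+ signalled, -0.19 in CD25+ other, -0.26 in CD25+ Foxp3 and -0.12 in pre-TCR cells. Hk1 (-0.49 to -0.04) and Aldoa (-0.40 to -0.09) were also lower in all 6. Gapdh was higher in all 6, at 0.14, 0.08, 0.18, 0.26, 0.26 and 0.15 in the same order. The share of cycling cells was higher in the knockout-labelled library in all 6 as well, for example 14.2% against 7.21% in CD25+ Foxp3 and 35.5% against 25.4% in pre-TCR cells. Without cycling cells Gapdh was at 0.07, 0.01, 0.16, 0.08, -0.03 and 0.13 in the same order, and Pkm at -0.53, -0.60, -0.35, -0.57, -0.40 and -0.33, past 1.5-fold in CD25- other cells. With cells holding a Ptcra, Rag1 or Dntt UMI left out, Gapdh was at -0.09 in CD25+ Foxp3 cells. It was then at 0.13 in CD25- signalled, 0.08 in CD25- other, 0.20 in CD25+ signalled and 0.14 in CD25+ other cells. Gm42418 stood at 15964 against 26492 CPM in CD25- signalled cells and at 17406 against 30230 CPM in CD25- other cells, lower in the knockout-labelled library where Pkm differed most. With Gm42418 and the mitochondrial, ribosomal and receptor genes taken out of the totals, Pkm was at -0.42 and -0.43 in these cells. The 4 CD25+ comparisons share 1 pair of libraries and the 2 CD25- comparisons another, so a same direction within a gate can come from the libraries as a whole. The sum of the 10 genes was 0.967-fold, 0.968-fold, 1.04-fold, 1.07-fold, 1.03-fold and 1.04-fold in the same order, knockout-labelled over WT. The median log2 ratio of the 10 genes was negative in all 6, at -0.01, -0.05, -0.07, -0.15, -0.17 and -0.06, so the sums above 1 in the CD25+ comparisons rest on Gapdh.

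**Figure D5:**
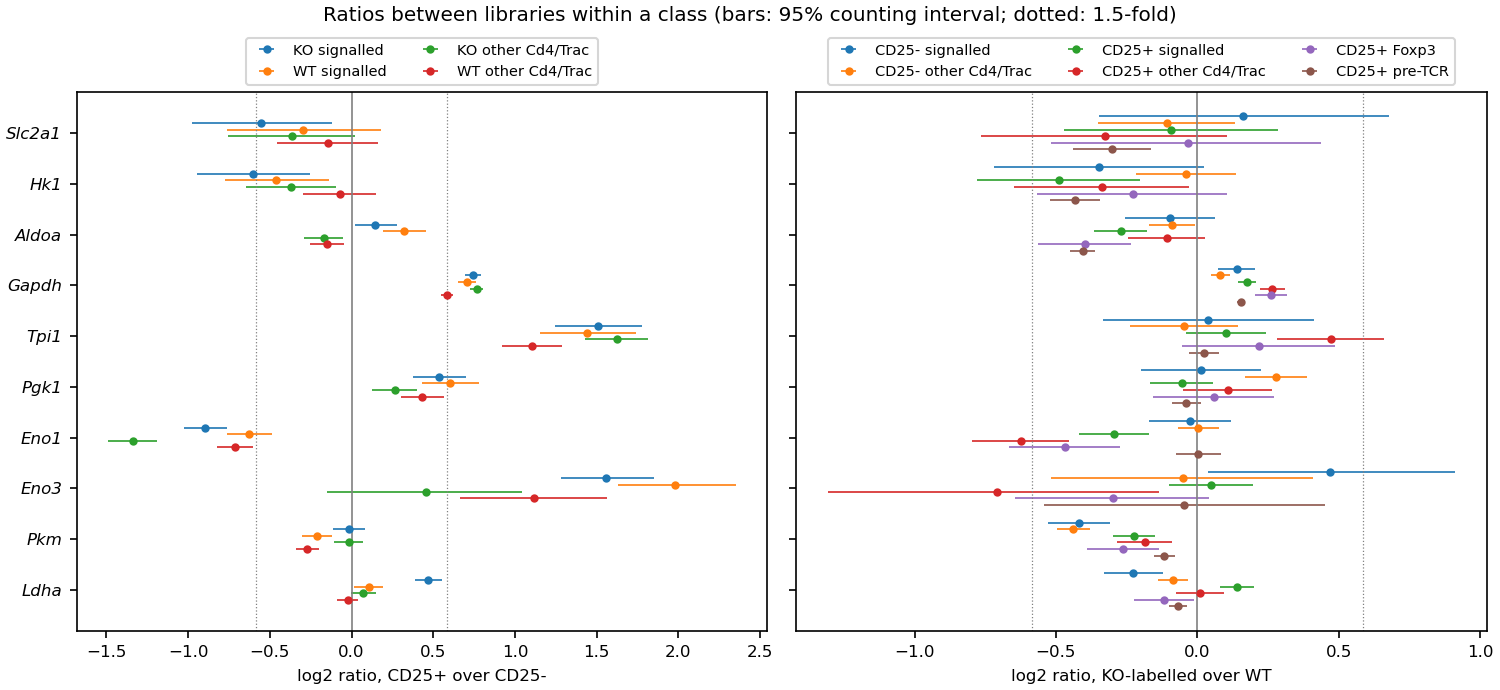
Log2 ratio of each gene between gates (left, CD25+ over CD25-) and between genotypes (right, knockout-labelled over WT) within a class; bars are 95% counting intervals and dotted lines mark 1.5-fold. Tpi1 is at 1.10 to 1.62 and Eno1 at -1.34 to -0.63 between gates, whereas all but 2 genotype ratios, those of Eno1 and Eno3 in CD25+ other cells, lie within 1.5-fold.

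Other genes of glucose and lactate handling were read from a list chosen with earlier results of these data known. Of its 26 genes 23 were tested, and 9 were higher and 1 lower in signalled cells, with a median log2 fold change of 0.07. By DESeq2 6 were higher and 0 lower. Over all genes 11.8% were higher and 13.4% lower in signalled cells. Within the list, the highest and lowest are named. The highest were Slc16a3, the lactate exporter MCT4 (log2 fold change 2.87 ± 0.40, edgeR adjusted p = 0.000119), Hk2, the inducible hexokinase (1.59 ± 0.46, edgeR adjusted p = 0.0190), and Pfkfb3, which makes the activator of phosphofructokinase (1.15 ± 0.21, edgeR adjusted p = 0.000936). Slc16a3 stood at 6.98, 5.04, 24.7 and 22.4 CPM in signalled cells of the knockout-labelled CD25-, WT CD25-, knockout-labelled CD25+ and WT CD25+ libraries, against 1.75, 1.28, 0.643 and 3.29 CPM in other cells. Hk2 was scarce throughout, at most 7.96 CPM, with no UMI in WT CD25- signalled cells. Pfkfb4 was lower (-0.60, edgeR adjusted p = 0.0372). Pgam1, the mutase just before enolase, stood at 147, 148, 273 and 245 CPM in signalled cells, against 97.1, 102, 157 and 128 CPM in other cells.

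In Foxp3 cells 2 genes of the list were higher, Slc16a3 (log2 fold change 2.26) and the neuronal-type glucose transporter Slc2a3 (0.95), and 4 were lower, Pgam2 (-1.23), the lactate carrier Slc16a1 (-1.09), Pgam1 (-0.56) and Ldhb (-0.42). By DESeq2 2 were higher and 2 lower. In pre-TCR cells 4 were higher and 8 lower. The lowest were the third enolase gene Eno2 (-4.29 ± 0.46, edgeR adjusted p = 2.26e-06), Eno1b (-2.53, edgeR adjusted p = 3.11e-08) and Slc16a3 (-2.25). The highest were Pgam2 (1.51), Aldoc (1.29) and Slc16a1 (0.60). All 4 enolase features, Eno1, Eno2, Eno3 and Eno1b, were thus lower in pre-TCR cells. Over all genes 7.05% were higher and 10.6% lower in Foxp3 cells, and 15.9% and 19.0% in pre-TCR cells.

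Genes that steer pyruvate or serve the pentose phosphate branch were read from 2 further lists, beside 11.8% higher and 13.4% lower over all genes in signalled cells. Of 11 tested genes for pyruvate entry to mitochondria, 3 were higher in signalled cells (Mpc1, Pdk3 and Pdp1) and 1 lower, Pdk1, an inhibitory kinase of pyruvate dehydrogenase (log2 fold change -0.81 ± 0.10, edgeR adjusted p = 4.17e-05). In Foxp3 cells Pdk3 was lower (-0.63), and in pre-TCR cells Pdk2 was higher (0.61). Of the 7 pentose phosphate genes, Tkt (0.41) and Pgd (0.37) were higher in signalled cells, Tkt was lower (-0.37) in Foxp3 cells, and Pgls (0.75) and Tkt (0.36) were higher in pre-TCR cells.

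Among 17 regulators, 3 were higher and 3 lower in signalled cells, where 11.8% of all genes were higher and 13.4% lower. Txnip, which lowers glucose uptake by removing GLUT1 from the cell surface, was lower (log2 fold change -1.19 ± 0.13, edgeR adjusted p = 9.66e-06), at 149.8, 159, 46.5 and 63.2 CPM in signalled cells of the knockout-labelled CD25-, WT CD25-, knockout-labelled CD25+ and WT CD25+ libraries, against 283, 298, 135 and 175 CPM in other cells. Mycn (-1.68) and Foxo1 (-0.68) were also lower. Egln3 (0.78), Myc (0.49) and Hif1a (0.39) were higher. In Foxp3 cells Foxo1 (0.67), Hif1a (0.50) and Tsc1 (0.48) were higher and Egln3 (-1.01) lower. In pre-TCR cells 3 were higher, with Mycn at 1.15 and Myc at 0.83, and 5 lower, with Foxo1 at -2.75 and Txnip at -0.70. Over all genes 7.05% were higher and 10.6% lower in Foxp3 cells, and 15.9% and 19.0% in pre-TCR cells.

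A further list held HIF targets outside glycolysis that were in none of the lists above. None of its 9 tested genes passed in signalled cells, where 11.8% of all genes were higher and 13.4% lower. None was higher or lower by edgeR's quasi-likelihood test or by DESeq2, and at an unadjusted p under 0.05 none was higher and 1 lower. In Foxp3 cells 1 was higher, P4ha1 (0.61). In pre-TCR cells Vegfa (1.53), Ndrg1 (1.40) and Car9 (1.04) were higher, and Ddit4 (-1.40), Ankrd37 (-0.76) and P4ha1 (-0.75) lower. There 2 were higher and 3 lower by DESeq2. Over all genes 7.05% were higher and 10.6% lower in Foxp3 cells, and 15.9% and 19.0% in pre-TCR cells.

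Of 16 proliferation genes, 9 were lower in signalled cells (median log2 fold change -0.63), with Ccnb2 (-1.89), Birc5 (-1.31) and Ccnb1 (-1.23) lowest, and none was higher by edgeR's quasi-likelihood test, at an unadjusted p under 0.05 or by DESeq2. All 16 were lower in Foxp3 cells (median -1.13). In pre-TCR cells 6 were lower and 1 higher (median -0.25). DESeq2 gave fewer calls, with 4 lower in signalled cells, and 0 lower and 1 higher in pre-TCR cells. All 16 were lower in Foxp3 cells by DESeq2 too. Over all genes 11.8% were higher and 13.4% lower in signalled cells, and 7.05% and 10.6% in Foxp3 cells. In pre-TCR cells these shares were 15.9% and 19.0%.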

How the data were processed

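Per the labels' protocols, cells were captured with 10x Genomics 5′ chemistry (Next GEM, kit v2), giving 4 libraries. The authors deposited raw UMI counts per gene and barcode (32285 genes), with no normalization. Per the submitters' processing notes, reads were aligned to mm10 with Cell Ranger 6.2.1; the file headers give version 6.1.2. The counting annotation was not stated in the sources used here.

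Barcodes with at least 500 genes and under 10% mitochondrial UMIs were kept, and the barcodes with the highest Scrublet scores (scanpy 1.11.5) were removed as doublets, 0.8% for every 1000 barcodes deposited. That was 2.89% and 4.27% of the knockout-labelled and WT CD25- cells and 8.65% and 6.89% of the knockout-labelled and WT CD25+ cells. Cells were classed in the order Foxp3, signalled, other Cd4/Trac, pre-TCR, and 203 to 1350 cells per library met no rule. Of the signalled cells, 20, 31, 197 and 165 in the knockout-labelled CD25-, WT CD25-, knockout-labelled CD25+ and WT CD25+ libraries held no Cd4 or Trac UMI.

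Counts were summed per library and class. The 14 sums of 20 or more cells were fitted together in edgeR 4.0.16 (R 4.3.3; TMM scaling, filterByExpr, quasi-likelihood test, library as a block), with p adjusted by Benjamini-Hochberg over 11752 genes and a threshold of 0.05. Values between gates and genotypes are ratios of CPM with exact conditional binomial intervals, for sums of at least 100 cells, a minimum set after the data were seen. Alternatives included DESeq2 1.42.0 and thinning each cell to 1500 UMIs, which left out 93, 535, 203 and 183 cells of the knockout-labelled CD25-, WT CD25-, knockout-labelled CD25+ and WT CD25+ libraries. The signalled and cycling tests and the ratio intervals were also run on simulated counts, with outcomes not given here. Shares carry exact (Clopper-Pearson) 95% intervals. Gene positions are from GENCODE vM21 and promoters from a RefSeq table. The 10 genes, lists and markers were chosen with earlier results of these data known. All 10 members were named, with, from each list, the 3 highest and 3 lowest genes per contrast, or all past the threshold where 5 or fewer; Pgam1, Ldhb, Eno1b and the remaining called genes of a list were named after their values were seen.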

Additional observations from a re-analysis of the deposited data

Results flagged for a closer look

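Ldha, the lactate dehydrogenase subunit, had opposite signs in the signalled cells of the 2 gates. The log2 ratio of knockout-labelled over WT was 0.14 in the CD25+ libraries and -0.23 in the CD25- libraries. Each side is 1 pair of libraries, both ratios lie under 1.5-fold, and the difference between the gates was not tested.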

How the results depend on the processing

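No paired analysis was possible because the labels carry no replicate numbers that pair libraries, each group being 1 library; the class contrasts are made within libraries instead, with library as a block. Of 320 counts of members past a threshold 272 stayed within 1.5 times of the reported count, and of 510 single-gene test results 453 kept direction and call, 54 lost the call, 2 gained it and 1 reversed. Of 1090 single-gene ratios between gates or genotypes, 912 stayed within their counting interval and 176 left it. The sign changed in 88, of which 2 were past 1.5-fold in at least 1 of the settings compared. Without each library in turn, the members higher in signalled cells numbered 6 to 8, those lower in Foxp3 cells 2 (without the knockout-labelled CD25+ library) to 4, and 3 without the WT CD25+ library, and those lower in pre-TCR cells 4 to 6. Left with no library block, 1 member was higher in signalled cells, and 0 were higher and 0 lower in Foxp3 cells; the all-gene counts in signalled cells were then 148 higher and 75 lower, against 1383 and 1571 with the block.

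Thinning to 1500 UMIs left 2 members higher in signalled cells, 0 higher and 1 lower in Foxp3 cells, and turned Eno1 in signalled cells to -0.0592 on the log2 scale. Between gates, thinned cells gave 1 higher and 2 lower (knockout-labelled other Cd4/Trac), 1 lower (knockout-labelled signalled), 3 higher and 0 lower (WT other) and 2 higher and 2 lower (WT signalled). Between genotypes they gave 1 higher and 2 lower (CD25- signalled), 2 lower (CD25+ other), 1 lower (pre-TCR) and 1 lower (CD25+ signalled), with Slc2a1 at -0.856 in CD25- signalled and Tpi1 at -0.721 in CD25+ other cells, both with the sign changed. The cause of these shifts was not tested. Thinning to 1500 UMIs also lowered the all-gene counts in signalled cells to 345 higher and 571 lower.

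Without cycling cells, 0 members were lower in Foxp3 cells, 1 higher and 2 lower between gates in knockout-labelled other cells, and 0 lower in WT signalled cells; between genotypes 1 was lower in CD25- other and 3 in CD25+ other cells. With the pre-TCR class assigned first, 2 were higher between gates in WT other and 0 lower in WT signalled cells, and 1 was higher and 2 lower between genotypes in CD25+ other cells. With doublets kept, these counts were 2 higher between gates in WT other cells and 0 lower between genotypes in CD25+ other cells. Alternatives added after the data were seen gave 0 lower between gates in WT signalled cells when signalled cells needed Cd4 or Trac, and, without Ptcra, Rag1 or Dntt cells, 0 lower in WT other and WT signalled cells between gates and 0 lower in CD25+ other cells between genotypes.

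With cells weighted equally, 1 member was lower in knockout-labelled signalled cells and 3 higher and 0 lower in WT other cells between gates, and 2 lower in CD25+ other cells between genotypes. Ratios centred on the median gene gave 1 lower in knockout-labelled signalled and 2 higher in WT other cells between gates. Totals without mitochondrial, ribosomal and receptor genes, and no minimum CPM, each gave 2 higher in WT other cells between gates and 2 lower in CD25+ other cells between genotypes. In the cycling comparison, 2 members were lower with no TMM scaling and 2 with no filter on low counts. The 59 and 50 Foxp3 cells of the CD25- libraries limit what can be read there.

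The counts over all genes moved by over 1.5 times in these settings. In signalled cells there were 719 higher and 944 lower without the knockout-labelled CD25+ library, and 654 and 850 without the WT CD25+ library. In Foxp3 cells there were 828 higher and 1240 lower, against 111 and 14 with no library block, 220 and 266 in thinned cells, 571 and 548 without cycling cells, 530 and 681 without the knockout-labelled CD25+ library, 372 and 347 without the WT CD25+ library, 657 and 707 where signalled cells needed Cd4 or Trac, and 700 and 729 without Ptcra, Rag1 or Dntt cells. In pre-TCR cells there were 1869 higher and 2236 lower, against 693 and 1429 with no library block, 1182 and 1529 in thinned cells, and 568 and 1176 without the WT CD25+ library.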
